A study of Homo sapiens with 60 samples.

Results

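The xenobiotic-metabolising genes described here are the nuclear receptors NR1I2 (PXR) and NR1I3 (CAR), the cytochromes P450 CYP3A4, CYP3A5, CYP3A7, CYP2B6, CYP2E1 and CYP2D6, and POR, which codes for P450 oxidoreductase. They were chosen by name, with earlier results of these data known, and make 9 of the 60675 genes in the count table, each with 1 row. PXR and CAR are ligand-responsive transcription factors of the liver that bind DNA as heterodimers with the retinoid X receptor and raise the transcription of P450, conjugation and transporter genes, with CYP3A4 and CYP2B6 as their best-known targets. The P450 enzymes sit in the endoplasmic reticulum, oxidise drugs and plant compounds, and depend on electrons that POR passes to them from NADPH. HepG2 is a line from a human hepatocellular carcinoma that keeps many hepatocyte functions but has little of several adult drug-metabolising P450s.

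HepG2 cells were treated for 24 h with water extracts of 4 single herbal drugs or 3 herbal mixtures, at 20, 100 or 500 µg/mL, or with vehicle (0.1% DMSO by the sample labels, but 2% DMSO by the series' design text). Citri Unshius Pericarpium, Cimicifugae Rhizoma, Bupleuri Radix, Aconiti Lateralis Radix Preparata, Yijung-tang and Banhasasim-tang had 3 libraries at each dose, Bojungikgi-tang had 1 library at each dose, and vehicle had 3. The design text also names wortmannin as a positive control, which was not analysed here, and the extracts are mixtures whose composition the labels do not give. All sample titles carry the same batch label, BatchB, and a code whose meaning the labels do not give, called a set here. The vehicle libraries have a set code of their own. Replicated extracts form 3 sets of 2: Citri Unshius Pericarpium with Cimicifugae Rhizoma, Bupleuri Radix with Aconiti Lateralis Radix Preparata, and Yijung-tang with Banhasasim-tang. In comparisons with vehicle, treatment and set cannot be told apart, so 500 was first compared with 20 µg/mL within each extract, and extracts were compared only within their set.

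Expected counts, the read estimates per gene that the deposited table holds, summed to between 17598645 and 30451639 per library. All 8 hepatocyte markers were detected in every library, with albumin (ALB) at 6586 to 10274 CPM, and HNF4A, the master regulator of hepatocyte genes, at 329 to 471 CPM. CPM here scales each count by the library's TMM-adjusted total. Of the 5 fibroblast or stellate markers COL1A2 and COL3A1 stayed at or below 0.0906 CPM and COL1A1 at or below 1.46 CPM, while PDGFRB had 5.996 to 15.4 and ACTA2 38.9 to 60.6 CPM. Of the 2 bile duct markers KRT7 stayed at or below 0.144 CPM and SOX9 had 174 to 214 CPM, and the 3 endothelial markers summed to 2.40 to 6.72 CPM. One vehicle library stood apart: replicate 2 held 152 counts of PTPRC and 120 of CD3E, both markers of leukocytes, against 0 to 1 count of each in the other 59 libraries. CD68, another leukocyte marker, did not stand out there (763 counts, against 640 to 1822 in the other libraries). Results against vehicle are therefore given with and without replicate 2, and the part of these transcripts in them was not tested. Whether the 3 replicates of a group were grown separately is not in the labels; the p-values then reflect variation among these libraries alone, possibly technical.

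The 9 genes spanned a wide range of levels. Per kilobase of exon, the mean level over the 60 libraries was 36.2 CPM for POR, 3.39 for NR1I2, 1.55 for CYP3A7, 0.801 for CYP3A5, 0.412 for CYP2D6 and 0.247 for NR1I3. CYP3A4, the main P450 of adult liver, stood at 0.0714, CYP2E1, which oxidises ethanol, at 0.0136, and CYP2B6, the classical CAR target, at 0.00751. CYP3A7, the fetal liver form, and not CYP3A4 was therefore the CYP3A gene with the highest level per kilobase. The length used joins all annotated exons of a gene, 3.81 kb for CYP3A7 and 6.76 kb for CYP3A5. Before division by length the means of CYP3A7 and CYP3A5 were close, at 5.92 and 5.42 CPM. Of the 9 members, 6 passed the filter on low counts and were tested in a fit of 16093 genes.

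**Figure D1:**
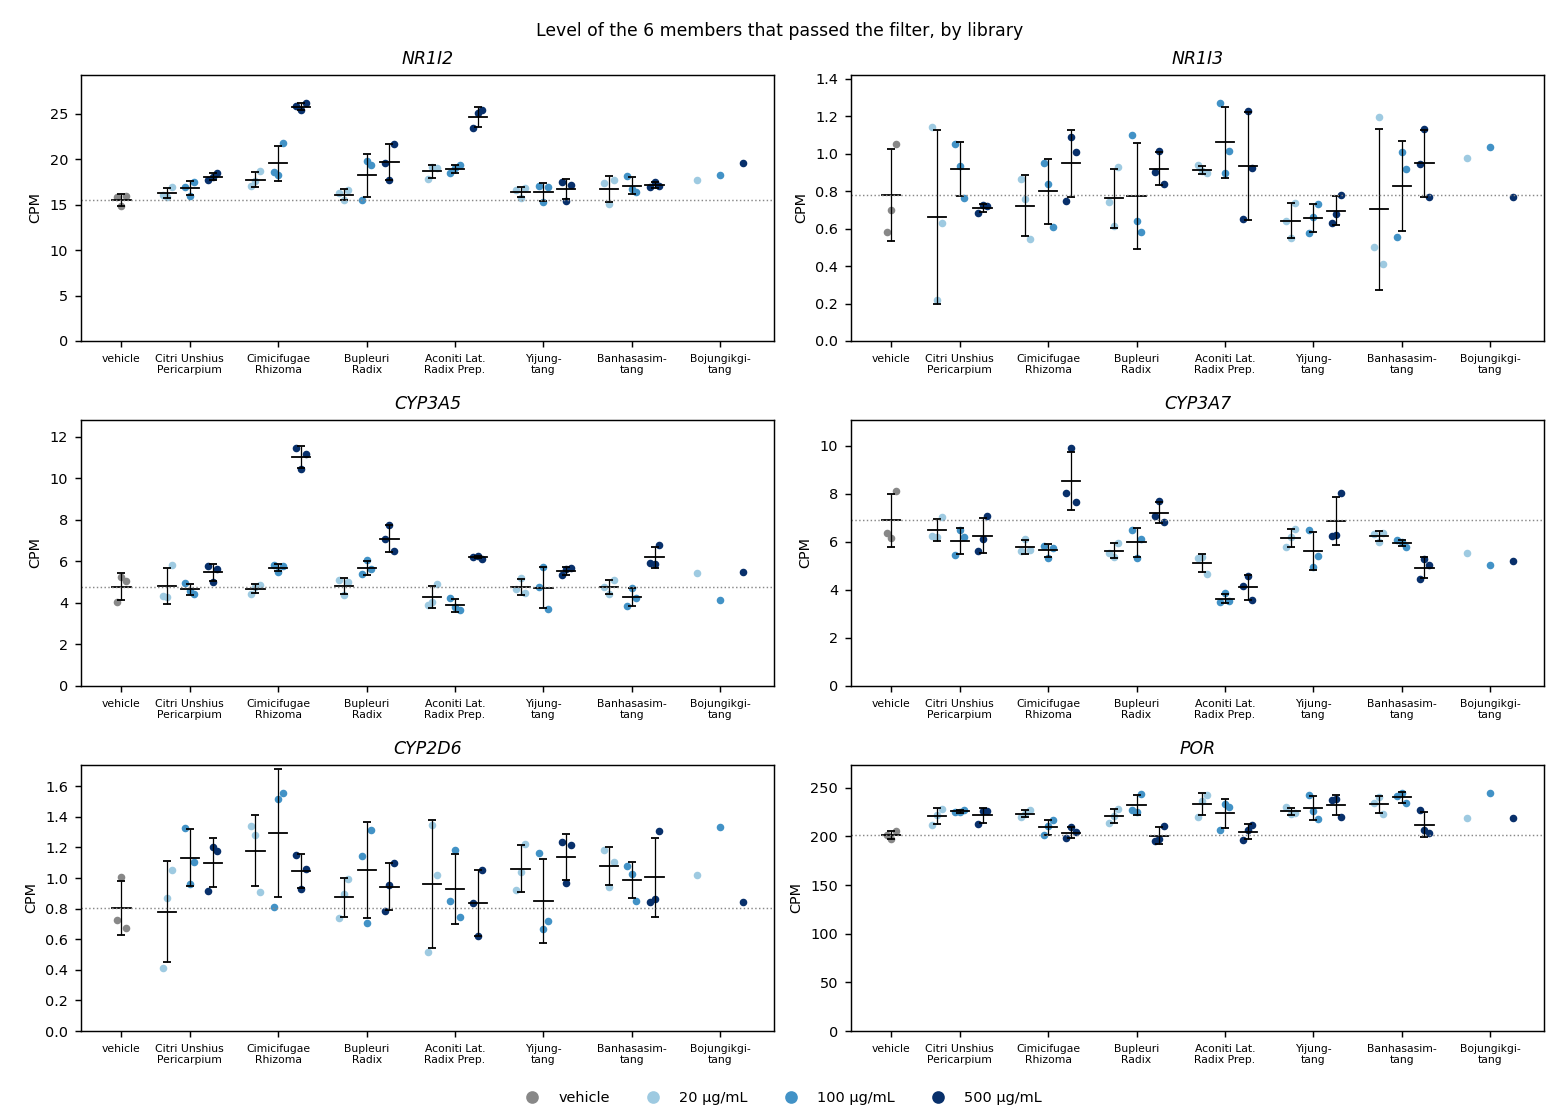
CPM in each library (points) of the 6 genes that passed the filter, with the mean and SD of each group of 3 (bars), for vehicle and then 20, 100 and 500 µg/mL of each extract; the dotted line is the vehicle mean, and Bojungikgi-tang has 1 library per dose. NR1I2 and CYP3A5 were highest in Cimicifugae Rhizoma at 500 µg/mL (25.8 and 11.0 CPM), while CYP3A7 was lowest in Aconiti Lateralis Radix Preparata at 100 µg/mL (3.64 CPM).

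NR1I2 codes for PXR, the receptor itself (chromosome 3, 119780484 to 119818485, plus strand, GRCh38). It was higher at 500 than at 20 µg/mL of 3 single drugs, which were Cimicifugae Rhizoma, Aconiti Lateralis Radix Preparata and Bupleuri Radix. In Cimicifugae Rhizoma it had 25.9, 25.4 and 26.2 CPM at 500 µg/mL, against 17.02, 17.6 and 18.7 CPM at 20 µg/mL. The groups did not overlap, and the log2 fold change was 0.53 ± 0.070 (SE, n = 3 each, edgeR quasi-likelihood adjusted p = 1.25e-08). In Aconiti Lateralis Radix Preparata it had 23.4, 25.1 and 25.5 CPM at 500 µg/mL, against 17.8, 19.1 and 19.04 CPM at 20 µg/mL. All 500 µg/mL libraries were again above all 20 µg/mL libraries, with a log2 fold change of 0.39 ± 0.068 (edgeR adjusted p = 5.15e-06). In Bupleuri Radix it had 19.6, 17.8 and 21.7 CPM at 500 µg/mL, against 16.3, 15.5 and 16.6 CPM at 20 µg/mL. The log2 fold change there was 0.29 ± 0.070 (edgeR adjusted p = 0.00165), and it was 0.21 with an adjusted p of 0.0542 without the third 500 µg/mL library.

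In the other 3 replicated extracts NR1I2 did not pass the test. The log2 fold change was 0.15 in Citri Unshius Pericarpium, 0.03 in Yijung-tang and 0.04 in Banhasasim-tang, and the upper 95% confidence limits were 0.30, 0.17 and 0.18. The Citri Unshius Pericarpium libraries at 500 µg/mL were nevertheless all above those at 20 µg/mL (17.7, 18.02 and 18.5 CPM, against 16.02, 15.9 and 16.9 CPM). When the 19 replicated groups were put in order of mean CPM, Cimicifugae Rhizoma at 500 µg/mL (25.8 ± 0.400 CPM) and Aconiti Lateralis Radix Preparata at 500 µg/mL (24.7 ± 1.08 CPM) stood at the top and overlapped each other. The third group, Bupleuri Radix at 500 µg/mL (19.7 ± 1.96 CPM), did not overlap with the second, and from there down to vehicle (15.5 ± 0.640 CPM) every group overlapped with the next.

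CYP3A5 oxidises many of the substrates of CYP3A4 and lies in the same gene cluster (chromosome 7, 99648194 to 99680026, minus strand, GRCh38). It was higher at 500 than at 20 µg/mL in 4 of the 6 replicated extracts. In Cimicifugae Rhizoma it had 11.4, 10.4 and 11.2 CPM at 500 µg/mL, against 4.43, 4.78 and 4.85 CPM at 20 µg/mL. This was the largest step between 20 and 500 µg/mL among the 6 tested members, with a log2 fold change of 1.23 ± 0.11 (SE, n = 3 each, edgeR adjusted p = 2.84e-13), or 2.34-fold. At 100 µg/mL it had 5.80, 5.499 and 5.77 CPM, above all 20 µg/mL libraries, although the comparison of 100 with 20 µg/mL did not pass the test (log2 fold change 0.28, edgeR adjusted p = 0.294).

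In Bupleuri Radix CYP3A5 had 7.06, 7.74 and 6.48 CPM at 500 µg/mL, against 5.10, 4.38 and 5.00 CPM at 20 µg/mL (log2 fold change 0.54 ± 0.11, edgeR adjusted p = 0.000157). In Aconiti Lateralis Radix Preparata it had 6.20, 6.23 and 6.13 CPM at 500 µg/mL, against 3.90, 4.02 and 4.89 CPM at 20 µg/mL (0.52 ± 0.12, edgeR adjusted p = 0.000218). In both extracts the 2 doses did not overlap. Banhasasim-tang gave 5.93, 5.86 and 6.78 CPM at 500 µg/mL, against 4.77, 4.41 and 5.12 CPM at 20 µg/mL. This difference (0.38 ± 0.11, edgeR adjusted p = 0.0114) was lost without the second 20 µg/mL library (0.33, adjusted p = 0.0884) or the third 500 µg/mL library (0.30, adjusted p = 0.114). In Citri Unshius Pericarpium and Yijung-tang the log2 fold changes of 0.18 and 0.21 did not pass the test, with upper 95% confidence limits of 0.42 and 0.44.

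CYP3A7 is the CYP3A form of fetal liver (chromosome 7, 99684957 to 99735196, minus strand, GRCh38). Between 20 and 500 µg/mL it moved in both directions: it was higher at 500 µg/mL in Cimicifugae Rhizoma and Bupleuri Radix and lower in Aconiti Lateralis Radix Preparata and Banhasasim-tang. The middle dose did not always lie between the others, with means of 5.79, 5.65 and 8.54 CPM at 20, 100 and 500 µg/mL of Cimicifugae Rhizoma and 5.12, 3.64 and 4.11 CPM at those doses of Aconiti Lateralis Radix Preparata. In Cimicifugae Rhizoma it had 8.06, 9.91 and 7.65 CPM at 500 µg/mL, against 5.61, 6.12 and 5.65 CPM at 20 µg/mL, a log2 fold change of 0.56 ± 0.11 (SE, n = 3 each, edgeR adjusted p = 4.79e-05). In Bupleuri Radix it had 7.09, 7.70 and 6.85 CPM at 500 µg/mL, against 5.55, 5.37 and 5.97 CPM at 20 µg/mL. That difference of 0.35 ± 0.11 (edgeR adjusted p = 0.0147) fell short of the threshold without the second 500 µg/mL library (0.30, adjusted p = 0.0924), the first 20 µg/mL library (0.34, adjusted p = 0.0557) or the second (0.32, adjusted p = 0.064).

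In Aconiti Lateralis Radix Preparata CYP3A7 had 4.17, 4.60 and 3.57 CPM at 500 µg/mL, against 5.33, 5.36 and 4.67 CPM at 20 µg/mL. All 500 µg/mL libraries were below all 20 µg/mL libraries, and the log2 fold change was -0.32 ± 0.12 (edgeR adjusted p = 0.032). At 100 µg/mL it had 3.52, 3.86 and 3.54 CPM, a fall of 0.49 ± 0.12 on the log2 scale against 20 µg/mL (edgeR adjusted p = 0.00625). The 500 µg/mL call missed the threshold with DESeq2 (adjusted p = 0.0545), in a fit of only the groups compared (adjusted p = 0.0541) and without the filter (adjusted p = 0.073). It also missed it without replicate 1 or 3 at 500 µg/mL (-0.33 and -0.22, adjusted p = 0.0678 and 0.197) and without replicate 1 or 2 at 20 µg/mL (-0.29 and -0.28, adjusted p = 0.093 and 0.111). The fall at 100 µg/mL held in all of the alternatives run; mitochondrial genes took 14.3 to 15.1% of counts at that dose, against 9.8 to 10.8% at 20 µg/mL, and their part in it was not tested.

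In Banhasasim-tang CYP3A7 had 4.45, 5.30 and 5.03 CPM at 500 µg/mL, against 6.34, 6.00 and 6.36 CPM at 20 µg/mL, with no overlap and a log2 fold change of -0.33 ± 0.11 (edgeR adjusted p = 0.0318). The call was lost without replicate 1 or 3 at 500 µg/mL (-0.27 and -0.36, adjusted p = 0.168 and 0.0604), without replicate 1 or 3 at 20 µg/mL (-0.32 each, adjusted p = 0.075 and 0.0847), without the filter (adjusted p = 0.0653) and in a fit of only the groups compared (adjusted p = 0.0659). In Citri Unshius Pericarpium (-0.05) and Yijung-tang (0.15) CYP3A7 did not pass the test. CYP3A7 shares exon bases with the readthrough gene CYP3A7-CYP3A51P, which held 0 to 11 counts per library, and 48.3% of its expected counts were not whole numbers, so a small part of its reads may have been split between them.

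**Figure D2:**
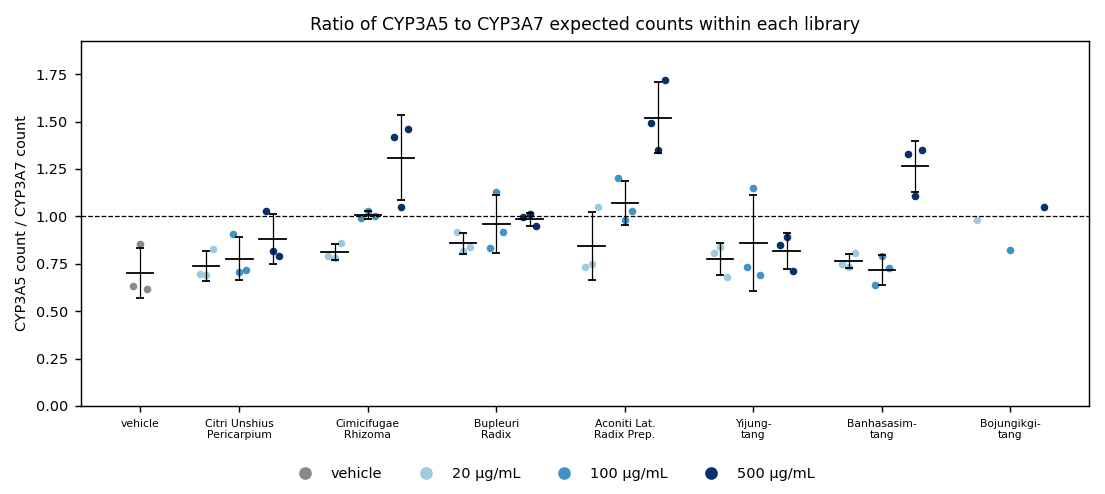
Ratio of the CYP3A5 to the CYP3A7 expected count within each library (points), with group means and SD (bars), for vehicle and then 20, 100 and 500 µg/mL of each extract. At 500 µg/mL all libraries of Aconiti Lateralis Radix Preparata, Cimicifugae Rhizoma and Banhasasim-tang lay above 1, the dashed line, while all vehicle libraries lay below it.

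The balance of the 2 genes within a library, which does not depend on the scaling of libraries, differed between 20 and 500 µg/mL in these extracts. The ratio of CYP3A5 to CYP3A7 counts was 1.49, 1.35 and 1.72 at 500 µg/mL of Aconiti Lateralis Radix Preparata, against 0.732, 0.750 and 1.05 at 20 µg/mL. In Cimicifugae Rhizoma it was 1.42, 1.05 and 1.46 at 500 µg/mL, against 0.790, 0.781 and 0.858 at 20 µg/mL. In Banhasasim-tang it was 1.33, 1.11 and 1.35 at 500 µg/mL, against 0.751, 0.734 and 0.806 at 20 µg/mL. In Bupleuri Radix it was 0.996, 1.01 and 0.947 at 500 µg/mL, against 0.919, 0.817 and 0.837 at 20 µg/mL. In each of these 4 extracts the 2 doses did not overlap. In Citri Unshius Pericarpium they did, with 0.793 to 1.03 at 500 µg/mL and 0.690 to 0.829 at 20 µg/mL. They also did in Yijung-tang, with 0.850, 0.890 and 0.710 at 500 µg/mL and 0.808, 0.838 and 0.681 at 20 µg/mL. The vehicle libraries had 0.631, 0.853 and 0.619. At 100 µg/mL the mean ratio was 1.07 in Aconiti Lateralis Radix Preparata, 1.01 in Cimicifugae Rhizoma and 0.960 in Bupleuri Radix. In Banhasasim-tang it was 0.717 at 100 µg/mL and 0.764 at 20 µg/mL. The ratio was not tested, nor was it compared with other gene pairs. The 4 extracts without overlap also had the largest shares of all genes called between 20 and 500 µg/mL.

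CYP3A5 and CYP3A7 rose together in Cimicifugae Rhizoma and Bupleuri Radix and had opposite signs in Aconiti Lateralis Radix Preparata and Banhasasim-tang. The stretch of their promoters with the proximal PXR element is shown as description, and its part in these changes was not tested. The element is an everted repeat of 2 arms, TGAACT and AGGTCA, with a spacer of 6 bases (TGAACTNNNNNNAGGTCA), and is known in CYP3A4 as a site bound by PXR. The sequences are from RefSeq (GRCh38.p14), run 5′ to 3′ on the minus strand of chromosome 7, and carry the element in capitals.
CYP3A4 (chr7:99784296-99784393): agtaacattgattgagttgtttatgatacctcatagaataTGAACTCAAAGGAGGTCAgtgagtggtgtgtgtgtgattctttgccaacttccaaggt
CYP3A5 (chr7:99680052-99680149): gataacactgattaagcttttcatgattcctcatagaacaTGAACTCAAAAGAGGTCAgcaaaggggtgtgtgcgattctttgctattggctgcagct
CYP3A7 (chr7:99735307-99735404): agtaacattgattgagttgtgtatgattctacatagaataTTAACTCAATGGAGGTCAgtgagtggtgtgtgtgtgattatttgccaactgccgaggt
The element began 169, 113 and 168 bases upstream of the RefSeq start in CYP3A4, CYP3A5 and CYP3A7. With positions counted from 1 at the 5′ end of the CYP3A4 element, CYP3A5 differed by G11A in the spacer, and CYP3A7 by G2T in the first arm and A10T in the spacer. The exact motif, searched on both strands of the RefSeq window around each start, was in 3 of 35116 windows of equal length (0.00854%), those of CYP3A4, CYP3A5 and ITGB1BP2, and 46 windows (0.131%) held it with at most 1 mismatch. The windows listed for NR1I2, NR1I3, CYP2B6 and CYP2E1 matched it with 3 to 5 mismatches at best. Bases outside these short windows, and elements with other arms or spacers, were not searched. No window was listed for CYP2D6 or POR, which were therefore not searched. A match describes these letters only; binding was not measured.

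POR is the one electron donor shared by all microsomal P450s (chromosome 7, 75899200 to 75986855, plus strand, GRCh38), and it was by far the most abundant member, at 195 to 245 CPM in all libraries. It fell between 20 and 500 µg/mL in the same 4 extracts in which CYP3A5 rose, by small amounts. It thus fell in the extracts with the largest shares of all genes called. In Aconiti Lateralis Radix Preparata it had 197, 207 and 211 CPM at 500 µg/mL, against 220.4, 237 and 242 CPM at 20 µg/mL (log2 fold change -0.19 ± 0.046, SE, n = 3 each, edgeR adjusted p = 0.000591). The groups did not overlap. In Cimicifugae Rhizoma it averaged 204 ± 5.71 CPM at 500 µg/mL and 223 ± 3.63 CPM at 20 µg/mL (-0.14, edgeR adjusted p = 0.0163). In Bupleuri Radix it averaged 201 ± 8.48 CPM at 500 µg/mL and 221 ± 7.25 CPM at 20 µg/mL (-0.14, edgeR adjusted p = 0.0224). In Banhasasim-tang it averaged 212 ± 12.9 CPM at 500 µg/mL and 233 ± 9.04 CPM at 20 µg/mL (-0.13, edgeR adjusted p = 0.044).

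Of these falls of POR, the one in Aconiti Lateralis Radix Preparata held without any single library. That of Cimicifugae Rhizoma missed the threshold without the first 500 µg/mL library (-0.11, adjusted p = 0.101) or the third 20 µg/mL library (-0.12, adjusted p = 0.0592). That of Bupleuri Radix did so without replicate 1 or 2 at 500 µg/mL (-0.12 and -0.13, adjusted p = 0.122 and 0.08), without replicate 2 or 3 at 20 µg/mL (-0.14 and -0.12, adjusted p = 0.0574 and 0.117) and without the filter (adjusted p = 0.0724). That of Banhasasim-tang did so without replicate 2 or 3 at 500 µg/mL (-0.11 each, adjusted p = 0.158 and 0.19), without replicate 1 or 2 at 20 µg/mL (-0.13 and -0.11, adjusted p = 0.0987 and 0.176), without the filter (adjusted p = 0.0811) and in a fit of only the groups compared (adjusted p = 0.151). In Citri Unshius Pericarpium and Yijung-tang POR stood at 0.01 and 0.04, with 95% confidence intervals of -0.09 to 0.10 and -0.06 to 0.13.

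**Figure D3:**
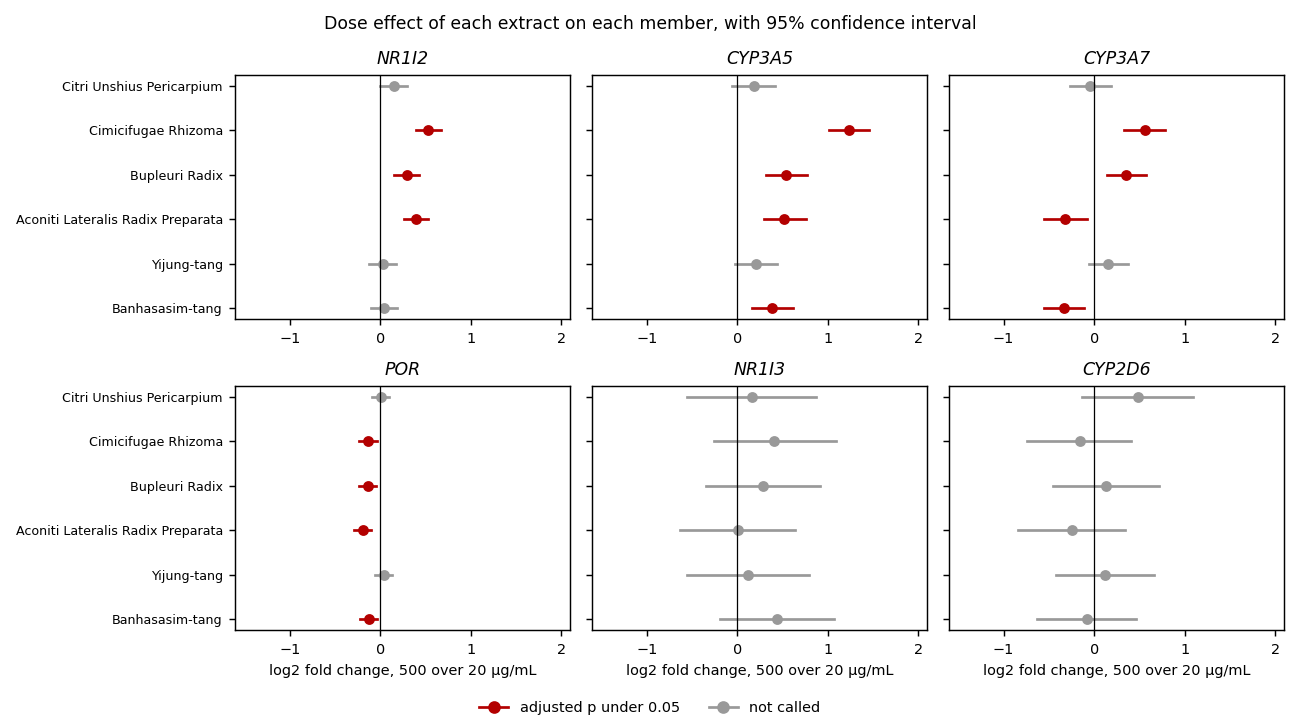
Log2 fold change of 500 over 20 µg/mL (points) with its 95% confidence interval (lines) for the 6 tested genes in the 6 replicated extracts; red marks an adjusted p under 0.05. CYP3A5 lay at 1.23 in Cimicifugae Rhizoma, CYP3A7 lay on both sides of 0, and the intervals of NR1I3 and CYP2D6 were wide.

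Counted over the 6 tested members, Cimicifugae Rhizoma, Bupleuri Radix and also Aconiti Lateralis Radix Preparata each changed 4 between 20 and 500 µg/mL, Banhasasim-tang changed 3, and Citri Unshius Pericarpium and Yijung-tang changed 0. The shares of all tested genes called in those comparisons were 39.2, 18.8, 37.2, 15.1, 1.65 and 3.77%, in the same order of extracts. In the 6 extracts together 15 of 36 tests were called, 9 higher and 6 lower at 500 µg/mL. For Citri Unshius Pericarpium 1 of the 6 members had an unadjusted p under 0.05 in edgeR and for Yijung-tang 0 did, and DESeq2 called 0 in both. Between 20 and 100 µg/mL only CYP3A7 in Aconiti Lateralis Radix Preparata was called, 1 of 36 tests, against 1.40% of all tests of genes in the 6 extracts. In the other 5 extracts edgeR called 0 of the 6 members at 100 µg/mL. DESeq2 called 0 of those for which it gave an adjusted p, which were 2 of 6 in Cimicifugae Rhizoma, 4 of 6 in Bupleuri Radix and Yijung-tang, and 6 of 6 in Citri Unshius Pericarpium and Banhasasim-tang. In edgeR there was 1 unadjusted p under 0.05 in Cimicifugae Rhizoma, 1 in Bupleuri Radix and 0 in the rest. Mitochondrial genes took 17.8 to 18.3% of counts in Aconiti Lateralis Radix Preparata at 500 µg/mL, against 9.8 to 10.8% at 20 µg/mL, and their part in the changes of that extract was not tested. In Cimicifugae Rhizoma these shares were 10.7 to 11.4% at 500 µg/mL and 9.5 to 10.3% at 20 µg/mL.

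NR1I3 codes for CAR (chromosome 1, 161229666 to 161238302, minus strand, GRCh38) and held only 4.5 to 32.9 expected counts per library. Its exons share bases with TOMM40L on the opposite strand, which held 712 to 1134 counts, and 98.3% of its expected counts were not whole, so its level is uncertain. None of its 36 comparisons was called by edgeR, 0 had an unadjusted p under 0.05, the smallest adjusted p was 0.252, and DESeq2 called 0 of the 32 for which it gave an adjusted p. The log2 fold changes of 500 over 20 µg/mL ran from 0.01 in Aconiti Lateralis Radix Preparata to 0.44 in Banhasasim-tang. In Banhasasim-tang NR1I3 had 0.947, 1.13 and 0.767 CPM at 500 µg/mL, against 0.500, 1.20 and 0.414 CPM at 20 µg/mL. Without the second 20 µg/mL library, which was the high one, that fold change was 1.06 with an adjusted p of 0.0409. The 95% confidence interval in Cimicifugae Rhizoma was -0.26 to 1.09, so a change of the size seen in NR1I2 could not be detected at this depth.

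CYP2D6, which metabolises many basic drugs and is not regarded as inducible through PXR (chromosome 22, 42126499 to 42130906, minus strand, GRCh38), held 8.4 to 38.7 expected counts per library. It lies beside the close copies CYP2D7 and CYP2D8P, which held 5 to 26.5 and 0 to 9 counts, and its share of reads against them is uncertain. None of its 36 comparisons was called by edgeR, 1 had an unadjusted p under 0.05, and DESeq2 called 0 of 32. The largest difference was 0.70 for Cimicifugae Rhizoma at 100 µg/mL against vehicle, where CYP2D6 had 0.813, 1.52 and 1.56 CPM at 100 µg/mL and 0.728, 1.01 and 0.675 CPM in vehicle (edgeR adjusted p = 0.0649). Those libraries overlapped, and without the first library at 100 µg/mL the difference was 0.94 (adjusted p = 0.0181).

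CYP3A4, the leading PXR target in hepatocytes (chromosome 7, 99756960 to 99784265, minus strand, GRCh38), held 1 to 12 counts per library and 328 in the 60 libraries together. Vehicle had 9, 8 and 7 counts, Cimicifugae Rhizoma at 500 µg/mL had 8, 3 and 5, and Aconiti Lateralis Radix Preparata at 500 µg/mL had 3, 6 and 3. The highest count was 12, in Citri Unshius Pericarpium at 500 µg/mL, whose other libraries had 6 and 9. CYP2E1 (chromosome 10, 133520406 to 133561220, plus strand, GRCh38) held 0 to 8 counts per library, and CYP2B6 (chromosome 19, 40991250 to 41018398, plus strand, GRCh38) held 0 to 4, with 0 in 29 of the 60 libraries. CYP2B6 was at 0 in all libraries of Citri Unshius Pericarpium and of Bupleuri Radix at 500 µg/mL; a count of 0 allows up to 3 counts, or 0.0985 CPM in the deepest library and 0.170 CPM in the shallowest, for counting error only. These 3 genes did not pass the filter. When all genes were tested without it, 0 of their 36 comparisons each were called by edgeR, with smallest adjusted p-values of 0.0685 for CYP3A4, 0.123 for CYP2B6 and 0.449 for CYP2E1. At an unadjusted p under 0.05 edgeR had 2, 2 and 0 comparisons for CYP3A4, CYP2B6 and CYP2E1, and DESeq2 called 0 of the 14, 2 and 8 for which it gave an adjusted p. None was called, and counts this low leave only large differences within reach of a test.

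**Figure D4:**
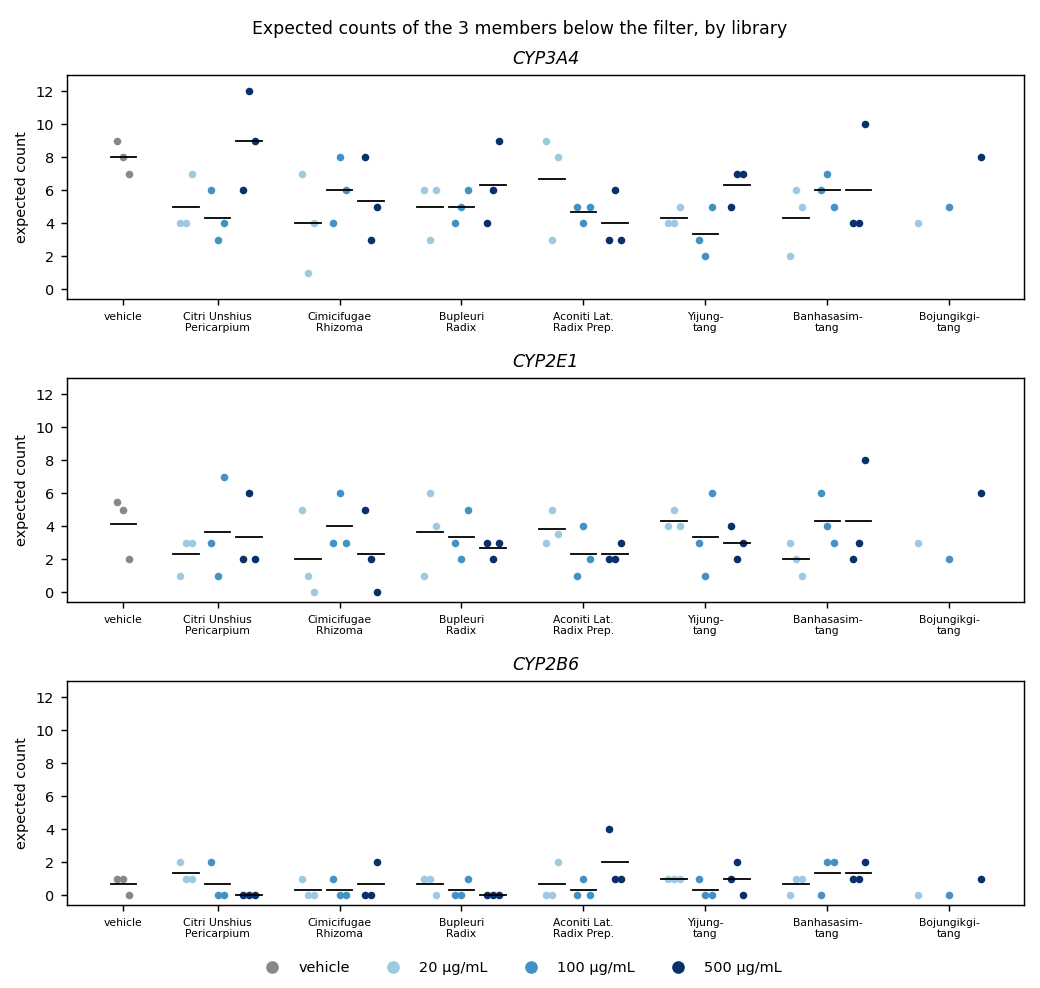
Expected counts of CYP3A4, CYP2E1 and CYP2B6 in each library (points) with group means (bars), for vehicle and then 20, 100 and 500 µg/mL of each extract. CYP3A4 stayed at or below 12, CYP2E1 at or below 8 and CYP2B6 at or below 4 counts.

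Extracts of the same set were then compared at 500 µg/mL. Citri Unshius Pericarpium had less CYP3A5 than Cimicifugae Rhizoma (5.47 ± 0.404 and 11.0 ± 0.524 CPM, SD, n = 3 each), a log2 difference of -1.0 ± 0.11 (edgeR adjusted p = 6.92e-11). It also had less NR1I2 (18.1 ± 0.380 and 25.8 ± 0.400 CPM, -0.51, edgeR adjusted p = 3.78e-08) and less CYP3A7 (6.27 ± 0.741 and 8.54 ± 1.21 CPM, -0.44, edgeR adjusted p = 0.000971). POR was higher (222 ± 7.57 and 204 ± 5.71 CPM, 0.13, edgeR adjusted p = 0.0254). The POR call was lost without replicate 1 or 3 of Cimicifugae Rhizoma (0.10 and 0.13, adjusted p = 0.14 and 0.0596) or replicate 2 or 3 of Citri Unshius Pericarpium (0.11 each, adjusted p = 0.0834 and 0.118). Thus 4 of 6 members were called, against 41.8% of all genes.

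Bupleuri Radix had more CYP3A7 than Aconiti Lateralis Radix Preparata at 500 µg/mL (7.21 ± 0.440 and 4.11 ± 0.519 CPM, SD, n = 3 each), a log2 difference of 0.81 ± 0.12 (edgeR adjusted p = 2.14e-07). It had less NR1I2 (19.7 ± 1.96 and 24.7 ± 1.08 CPM, -0.31, edgeR adjusted p = 0.000334). CYP3A5 did not differ beyond the threshold (0.20, 95% confidence interval -0.02 to 0.42), nor did POR (-0.02, -0.12 to 0.07). These were 2 of 6 members, against 23.5% of all genes. Yijung-tang had more CYP3A7 than Banhasasim-tang at 500 µg/mL (6.86 ± 1.01 and 4.93 ± 0.434 CPM, 0.48, edgeR adjusted p = 0.00116), the 1 member of 6 called there, against 14.9% of all genes. POR was close to the threshold in that comparison (232 ± 10.2 and 212 ± 12.9 CPM, 0.13, edgeR adjusted p = 0.0526), and 5 of the 7 alternatives to the fit called it, among them DESeq2 (adjusted p = 0.0338).

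The difference of the dose effects was tested as well. The step between 20 and 500 µg/mL was smaller in Citri Unshius Pericarpium than in Cimicifugae Rhizoma for CYP3A5 (-1.05 ± 0.16, SE, edgeR adjusted p = 9.78e-07), CYP3A7 (-0.60 ± 0.16, edgeR adjusted p = 0.00247) and NR1I2 (-0.38 ± 0.10, edgeR adjusted p = 0.00298), 3 of 6 members against 28.2% of all genes. Between Bupleuri Radix and Aconiti Lateralis Radix Preparata it differed for CYP3A7 (0.67 ± 0.16, edgeR adjusted p = 0.00303), 1 of 6 members against 10.2% of all genes. Between Yijung-tang and Banhasasim-tang it also differed for CYP3A7 alone among the members (0.48 ± 0.15, edgeR adjusted p = 0.0284), against 12.1% of all genes. The last of these calls was lost without Yijung-tang replicate 1 at 20 µg/mL or replicate 3 at 500 µg/mL (0.45 and 0.36, adjusted p = 0.0771 and 0.124), without Banhasasim-tang replicate 1 at 500 µg/mL or replicate 3 at 20 µg/mL (0.42 and 0.47, adjusted p = 0.0941 and 0.0528), without the filter (0.49, adjusted p = 0.0507) and in a fit of only the groups compared (adjusted p = 0.0841). The dose effect on CYP3A5 in Bupleuri Radix and Aconiti Lateralis Radix Preparata differed by 0.02, with a 95% confidence interval of -0.30 to 0.34.

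Against vehicle at 500 µg/mL, NR1I2 stood higher in Cimicifugae Rhizoma (0.73, edgeR adjusted p = 4.13e-12), Aconiti Lateralis Radix Preparata (0.66, 5.24e-11), Bupleuri Radix (0.35, 0.00013) and Citri Unshius Pericarpium (0.22, 0.023), where vehicle had 15.8, 14.8 and 16.02 CPM. CYP3A5 was higher in Cimicifugae Rhizoma (1.21, edgeR adjusted p = 5.05e-13), Bupleuri Radix (0.57, 6.52e-05), Banhasasim-tang (0.38, 0.00658) and Aconiti Lateralis Radix Preparata (0.37, 0.00656), where vehicle had 4.02, 5.26 and 5.04 CPM. CYP3A7 was lower in Aconiti Lateralis Radix Preparata (-0.75, edgeR adjusted p = 6.17e-07) and Banhasasim-tang (-0.48, 0.000643) and higher in Cimicifugae Rhizoma (0.31, 0.0182), where vehicle had 6.38, 6.16 and 8.14 CPM. Mitochondrial genes took 9.4 to 18.3% of counts in the 6 extracts at 500 µg/mL, against 7.7 to 9.2% in vehicle, and their part in these differences was not tested. In Aconiti Lateralis Radix Preparata CYP3A7 was below vehicle at all 3 doses, with -0.43 at 20, -0.92 at 100 and -0.75 at 500 µg/mL. CYP3A5 was lower than vehicle at 100 µg/mL of that extract (-0.30, edgeR adjusted p = 0.0488). That call was lost without vehicle replicate 2 (-0.23, adjusted p = 0.203) and with DESeq2. It held in only 1 of the 7 alternatives with all libraries and in 2 of the 6 fits that left out 1 of its libraries. In all, 13 of 36 tests of members at 500 µg/mL were called, 11 higher and 2 lower. Of all genes, 22.5% were called for Citri Unshius Pericarpium, 45.8% for Cimicifugae Rhizoma, 35.7% for Bupleuri Radix, 47.4% for Aconiti Lateralis Radix Preparata, 32.6% for Yijung-tang and 34.7% for Banhasasim-tang.

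At 100 µg/mL 11 of 36 tests of members against vehicle were called, against 29.7% of all tests of genes in the 6 extracts, and at 20 µg/mL 8 of 36, against 24.5%. Of the 8 calls at 20 µg/mL 6 were POR, which was higher than vehicle in all 6 extracts (0.14 to 0.22) but turned to -0.02 to -0.07 there with the GC trend of each library removed. Without vehicle replicate 2, POR was no longer called in Citri Unshius Pericarpium (0.12, adjusted p = 0.138), Cimicifugae Rhizoma (0.13, adjusted p = 0.0894) and Bupleuri Radix (0.12, adjusted p = 0.115). The direction of POR against vehicle thus depended on the GC correction; its longest transcript has 61.3% GC. Of the 32 calls against vehicle at the 3 doses, 23 held without vehicle replicate 2, and all 32 kept their direction. At 500 µg/mL 10 of 36 were called without that library, the calls lost being POR (0.12, adjusted p = 0.109) and NR1I2 (0.18, adjusted p = 0.122) in Citri Unshius Pericarpium and CYP3A7 in Cimicifugae Rhizoma (0.23, adjusted p = 0.125). Without vehicle replicate 1 it was 8 of 36, with CYP3A5 in Aconiti Lateralis Radix Preparata at 0.26 (adjusted p = 0.0918) and in Banhasasim-tang at 0.27 (adjusted p = 0.0975) also lost. At 100 and 20 µg/mL 9 and 6 of 36 were called without replicate 2. These counts include new calls of CYP3A7, lower in Cimicifugae Rhizoma at 100 µg/mL (-0.36, edgeR adjusted p = 0.0274) and in Bupleuri Radix at 20 µg/mL (-0.36, edgeR adjusted p = 0.0338).

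Bojungikgi-tang, a mixture with 1 library per dose, allowed no test. NR1I2 stood at 17.7, 18.3 and 19.5 CPM at 20, 100 and 500 µg/mL, above the 3 vehicle libraries at every dose. CYP3A5 stood at 5.42, 4.14 and 5.496 CPM and CYP3A7 at 5.52, 5.02 and 5.21 CPM at the same doses, the CYP3A7 values below all vehicle libraries. POR had 219, 245 and 219 CPM. CYP3A4 had 4, 5 and 8 counts.

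The wider pathway was read from 4 gene lists, again as 500 against 20 µg/mL. Among 16 tested of 17 receptor partners and coregulators, 2 rose and 7 fell in Cimicifugae Rhizoma, 2 and 7 in Bupleuri Radix, 3 and 8 in Aconiti Lateralis Radix Preparata, 1 and 4 in Banhasasim-tang, 0 and 1 in Citri Unshius Pericarpium and 1 and 0 in Yijung-tang. Of all 16093 genes, 3140 rose and 3176 fell in Cimicifugae Rhizoma (39.2% called), 1594 and 1430 in Bupleuri Radix (18.8%), 3083 and 2906 in Aconiti Lateralis Radix Preparata (37.2%), 1383 and 1050 in Banhasasim-tang (15.1%), 117 and 148 in Citri Unshius Pericarpium (1.65%) and 266 and 341 in Yijung-tang (3.77%). The list counts here and below stand beside these shares and were not tested against them. The list medians lay between -0.13 and 0.00, and the medians of all genes tested between 0.001 and 0.003. CEBPA, a transcription factor that maintains hepatocyte genes, fell in 4 extracts, to 41.3 ± 1.64 CPM at 500 µg/mL of Cimicifugae Rhizoma, against 141 ± 5.16 CPM at 20 µg/mL (-1.78, edgeR adjusted p = 4.63e-19), and by 1.24 in Aconiti Lateralis Radix Preparata. NR0B2 (SHP), a corepressor of nuclear receptors, rose to 106.9 ± 7.35 CPM in Cimicifugae Rhizoma, against 48.6 ± 1.93 CPM at 20 µg/mL (1.13, edgeR adjusted p = 3.85e-21). It rose by 0.60 in both Bupleuri Radix and Aconiti Lateralis Radix Preparata and fell by 0.23 in Citri Unshius Pericarpium. PPARGC1A, a coactivator of hepatic nuclear receptors, rose in 5 extracts, by 0.22 to 0.67.

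**Figure D5:**
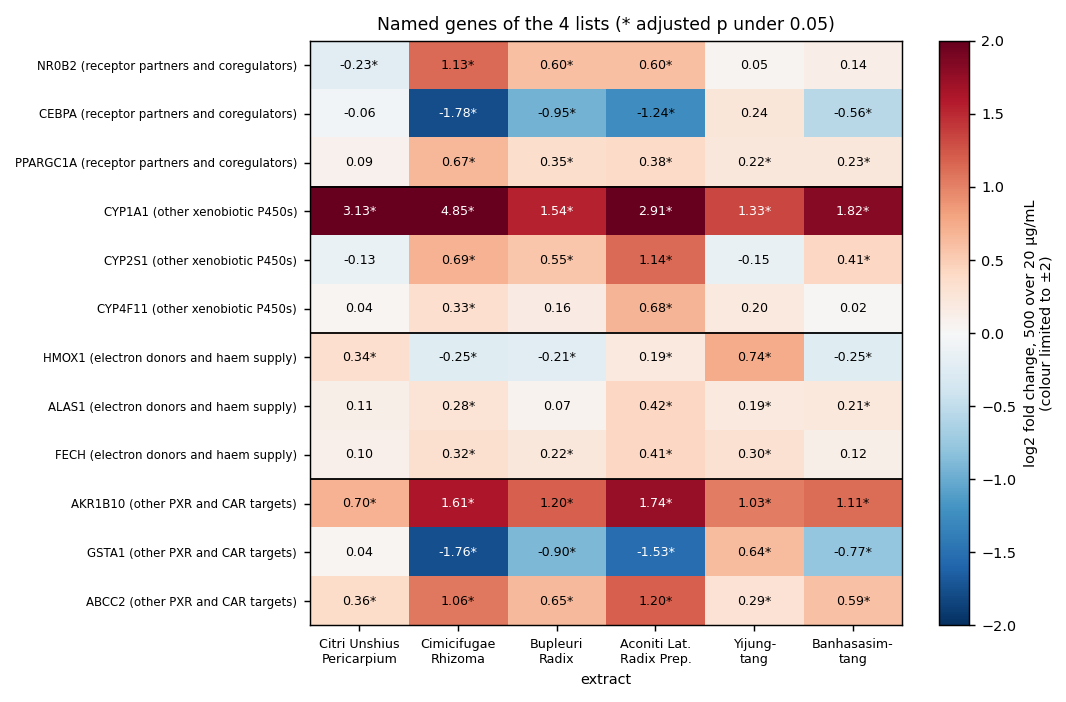
Log2 fold change of 500 over 20 µg/mL for the 3 named genes of each of the 4 lists (rows) in the 6 replicated extracts (columns); an asterisk marks an adjusted p under 0.05. CEBPA and GSTA1 fell most in Cimicifugae Rhizoma (-1.78 and -1.76), while ABCC2 and AKR1B10 rose in all 6 extracts.

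Of 17 other P450 genes of foreign compounds 10 were tested. In Cimicifugae Rhizoma 5 rose and 2 fell, in Aconiti Lateralis Radix Preparata 5 and 3, in Bupleuri Radix 4 and 2, in Banhasasim-tang 3 and 2, in Yijung-tang 3 and 0 and in Citri Unshius Pericarpium 1 and 0. The shares of all genes called were 39.2, 37.2, 18.8, 15.1, 3.77 and 1.65% in that order. CYP1A1, the target of the aryl hydrocarbon receptor, rose in all 6 by 1.33 to 4.85, more than any CYP3A gene in the same extract. CYP2S1 rose in 4 extracts, most in Aconiti Lateralis Radix Preparata (13.2 ± 0.960 CPM at 500 µg/mL and 5.98 ± 0.807 CPM at 20 µg/mL, 1.14, edgeR adjusted p = 5.48e-12). CYP4F11, a fatty acid hydroxylase, rose in Aconiti Lateralis Radix Preparata (0.68) and Cimicifugae Rhizoma (0.33).

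All 16 genes for electron donors other than POR and for haem supply were tested. In Cimicifugae Rhizoma 8 rose and 5 fell, in Aconiti Lateralis Radix Preparata 6 and 4, in Yijung-tang 5 and 0, in Banhasasim-tang 3 and 3, in Bupleuri Radix 2 and 2 and in Citri Unshius Pericarpium 1 and 0. The shares of all genes called were 39.2, 37.2, 3.77, 15.1, 18.8 and 1.65% in that order. ALAS1, the first and rate-limiting enzyme of haem synthesis, rose in 4 extracts, most in Aconiti Lateralis Radix Preparata (70.6 ± 3.26 CPM at 500 µg/mL and 52.6 ± 1.94 CPM at 20 µg/mL, 0.42, edgeR adjusted p = 7.63e-10). FECH, which inserts the iron when haem is made, also rose in 4, by 0.22 to 0.41. HMOX1, which breaks haem down, was called in all 6 but in both directions, from -0.25 in Cimicifugae Rhizoma and Banhasasim-tang to 0.74 in Yijung-tang.

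Of 20 other genes known as PXR or CAR targets 16 were tested. In Cimicifugae Rhizoma 5 rose and 7 fell, in Aconiti Lateralis Radix Preparata 6 and 8, in Bupleuri Radix 4 and 6, in Banhasasim-tang 5 and 3, in Yijung-tang 7 and 0 and in Citri Unshius Pericarpium 6 and 0. The shares of all genes called were 39.2, 37.2, 18.8, 15.1, 3.77 and 1.65% in that order. ABCC2, the canalicular export pump for conjugates, rose in all 6 extracts, to 893 ± 26.1 CPM at 500 µg/mL of Aconiti Lateralis Radix Preparata, against 387 ± 19.5 CPM at 20 µg/mL (1.20, edgeR adjusted p = 4.39e-24). AKR1B10, an aldehyde reductase that also answers to NRF2, rose in all 6 by 0.70 to 1.74. GSTA1, a glutathione transferase, fell in the same 4 extracts in which CYP3A5 rose, to 21.1 ± 1.65 CPM at 500 µg/mL of Cimicifugae Rhizoma, against 71.3 ± 0.226 CPM at 20 µg/mL (-1.76, edgeR adjusted p = 3.42e-25), and rose by 0.64 in Yijung-tang. CYP3A5 and GSTA1 had opposite signs in each of those 4 extracts, which were also the extracts with the largest shares of all genes called. Of the same list, GSTA2 and SULT2A1 also fell in 4 extracts and rose in 1, while ABCB1 and ABCG2 rose in 5 and fell in 0.

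Across the 19 replicated groups, the genes whose mean log2 CPM ran most like each member were sought among 10197 protein-coding genes with a mean of at least 5 CPM. For NR1I2 they included STAT6 (Pearson r = 0.96), for CYP3A5 they were FAXDC2 and RETSAT (0.94 each), for CYP3A7 SMLR1 (0.87) and AOPEP (0.86), and for POR LZTS2 (0.91) and RAB40C (0.90). The low-count members had weaker partners, with NR1I3 at 0.77 to PPID and CYP2D6 at 0.68 to SPRN. Between members, NR1I2 ran with CYP3A5 at 0.70, with NR1I3 at 0.57, with CYP3A7 at -0.07 and with POR at -0.49. CYP3A5 ran with CYP3A7 at 0.50 and with POR at -0.62, and the other 9 pairs lay between -0.37 and 0.28. These values describe 19 groups whose doses and sets are shared.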

How the data were processed

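Per the submitters' processing notes, reads were checked with FastQC 0.11.9, trimmed with Trim Galore 0.6.5, aligned to GRCh38 with STAR 2.7.3a and quantified with RSEM 1.3.3; the annotation release is not given in the sources used here. The deposited table holds the authors' RSEM expected counts (estimated, unscaled; 24.5% of nonzero values not whole, tolerance 1e-06) for 60675 Ensembl genes. It has 207 further columns of other samples, which were not used. GENCODE 29 named 57055 genes; those without a symbol held 0.0398% of counts. Per the labels' protocols, libraries were directional and read as 100 bp pairs.

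Counts were rounded and scaled by TMM in edgeR 4.0.16 (R 4.3.3, limma 3.58.1). One mean per group was fitted to 57 libraries in 19 replicated groups by quasi-likelihood, filterByExpr keeping 16093 genes; a gene was called at a Benjamini-Hochberg adjusted p under 0.05 over all genes of a comparison. SE came from the fold change and its F statistic. All members are named; each list's 3 members with the smallest adjusted p in any extract (mean CPM of at least 1) are named too. The fit was also run on simulated counts, drawn from its own estimates of spread, in which a small share of genes changed. Far more genes were called in several of the real comparisons, so that run does not measure the error rate here. Members and lists were chosen with earlier results of these data known. Replicate pairs differed by 2.55 to 18.2 chi-square per gene, so none was a repeat deposit. Alternatives included DESeq2 1.42.0, size factors by the median ratio, other filters, a GC trend removed, a replicate block and leaving out each library. One result on likeness between genes is not reported here.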

Additional observations from a re-analysis of the deposited data

Results flagged for a closer look

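Of the results, 5 stood out because the effect of dose differed between extracts of 1 set by an interaction test in the edgeR fit. For Citri Unshius Pericarpium against Cimicifugae Rhizoma the difference of the dose effects was -1.05 for CYP3A5, -0.38 for NR1I2 and -0.60 for CYP3A7. For CYP3A7 it was 0.67 in Bupleuri Radix against Aconiti Lateralis Radix Preparata and 0.48 in Yijung-tang against Banhasasim-tang.

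The unreplicated mixture Bojungikgi-tang entered no comparison, and at 500 µg/mL it had 19.5 CPM of NR1I2, 5.496 CPM of CYP3A5 and 219 CPM of POR, each above all 3 vehicle libraries. These single values have no replicate check. At 20 µg/mL this mixture also stood above all vehicle libraries, with 17.7 CPM of NR1I2, 5.42 CPM of CYP3A5 and 219 CPM of POR. Vehicle had the lowest mean NR1I2 of the 19 replicated groups. The mixture and vehicle have different set codes, so treatment and set cannot be told apart here. In the replicated extracts the direction of POR against vehicle depended on the GC correction.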

How the results depend on the processing

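Against 15, 13, 7 and 5 calls for 500 against 20 µg/mL, 500 µg/mL against vehicle, extracts of a set and differences of the dose effect, the 7 alternatives with all libraries gave 11 to 15, 12 to 16, 7 to 8 and 4 to 7. With the GC trend removed there were 2 calls in place of 1 between 100 and 20 µg/mL, 6 in place of 11 at 100 µg/mL against vehicle and 2 in place of 8 at 20 µg/mL against vehicle. POR then reversed against vehicle. At 500 µg/mL it was -0.05 in Citri Unshius Pericarpium, -0.17 in Cimicifugae Rhizoma, -0.20 in Aconiti Lateralis Radix Preparata, -0.06 in Yijung-tang and -0.16 in Banhasasim-tang. In Bupleuri Radix at 500 µg/mL, where it had not been called, it was -0.21. It was then called lower than vehicle at 500 µg/mL in Cimicifugae Rhizoma, Bupleuri Radix, Aconiti Lateralis Radix Preparata and Banhasasim-tang, and at 100 µg/mL in Cimicifugae Rhizoma and Aconiti Lateralis Radix Preparata. At 100 µg/mL it was -0.04, -0.15, -0.03 (Bupleuri Radix), -0.11, -0.08 and -0.02, and at 20 µg/mL -0.05, -0.02, -0.07, -0.03, -0.06 and -0.05, each in the order Citri Unshius Pericarpium, Cimicifugae Rhizoma, Bupleuri Radix, Aconiti Lateralis Radix Preparata, Yijung-tang, Banhasasim-tang; the cause was not tested. Leaving out 1 library at a time gave 12 to 15, 1 to 1, 8 to 13, 9 to 12, 6 to 8, 6 to 8 and 4 to 5 calls for 500 and 100 against 20 µg/mL, 500, 100 and 20 µg/mL against vehicle, extracts of a set and differences of the dose effect; at 500 µg/mL against vehicle the 8 came without vehicle replicate 1. Within an extract, same-numbered replicates at 500 and 20 µg/mL deviated together with a correlation of -0.03 to 0.13 over all tested genes. For other numbers the mean correlation was -0.06 to 0.02. Whether equal numbers mark shared handling is not in the labels. A replicate block gave 15, 1, 13, 10, 9, 8 and 7 calls. The 2 added differences of the dose effect were POR in Citri Unshius Pericarpium against Cimicifugae Rhizoma (0.14, edgeR adjusted p = 0.0111) and in Yijung-tang against Banhasasim-tang (0.17, edgeR adjusted p = 0.00503). Counts under about 40 in NR1I3 and CYP2D6 limit what could be detected.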
